A study of Homo sapiens with 8 samples.

Results

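The acute response to low oxygen was examined in wild-type (WT) HCT116 cells, an established human colorectal carcinoma line, by comparing the 2 PRO-seq libraries of cells exposed to 1% O2 for 90 min with the 2 libraries of cells kept in normoxia. These are 4 of the 8 libraries of the series. The other 4 are the same pair of conditions in HIF1A-/- HCT116 cells, a derivative made by disrupting *HIF1A* through homologous recombination. Their values are given only where the genotypes are set side by side. They enter every WT test as well, because all 8 libraries were fitted together. That fit estimates the spread between libraries and the difference between replicate numbers from both genotypes. All 8 cultures received DMSO as vehicle, and the 2 libraries of a group came from separate cultures numbered 1 and 2, each pooled from several plates. The features are the genes with more than 0.5 counts per 1000000 reads (CPM) in at least 2 of the 8 libraries, which left 16686 of 23193 gene bodies, 15212 transcription start site (TSS) regions, and 14494 genes with both. WT libraries held 18125234 to 23622392 gene body reads and 3813025 to 5966348 TSS reads. Of 10 markers of colon epithelium, 8 exceeded 1 read per kilobase per 1000000 reads (RPKM) in every WT library, whereas *VIL1* and *GPX2* stayed at or below 0.0211 RPKM. The 16 markers of other cell types had a median highest value of 0.0306 RPKM, with *COL1A1* the exception at 1.72 to 2.98.

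PRO-seq maps RNA polymerases that are engaged on DNA, because only these extend their RNA in the run-on reaction, and it therefore reads transcription itself rather than accumulated RNA. Signal close to the TSS comes mostly from paused polymerase, and signal further into the gene from polymerase released into elongation. In low oxygen the prolyl hydroxylases that mark the alpha subunits of the hypoxia-inducible factors (HIFs) for degradation lose activity, and the stabilized factors bind the core sequence ACGTG, the hypoxia response element, near genes for glycolysis, glucose uptake, red blood cell and vessel formation, and mitochondrial turnover. Counts were compared as shares of each library, so fewer transcribing cells and less transcription per cell cannot be told apart, and a change common to all genes would not be seen.

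At 90 min of hypoxia, 623 gene bodies had more reads and 296 had fewer, which is 3.73% and 1.77% of those tested (quasi-likelihood test of edgeR, false discovery rate (FDR) of 10% after Benjamini-Hochberg adjustment). The higher genes had a median log2 fold change of 0.72, and 205 of them more than doubled and 41 rose over 4-fold. Decreases were smaller, at a median of -0.46, with 7 genes that fell to less than 50% of normoxia. In 554 of the higher genes and 205 of the lower genes, both hypoxia libraries lay on one side of both normoxia libraries, an arrangement found in 18.2% (higher) and 19.4% (lower) of all genes tested. All genes tested had a median of -0.02. The difference between replicates 1 and 2 was correlated across gene bodies in every pair of groups, at 0.501 to 0.848. It was not shared by every gene, and in *HSPA8* it reversed between WT normoxia and WT hypoxia. The fit carries the replicate number as a term. Without it, 72 of the higher genes and none of the lower genes passed, with 585 and 184 at an unadjusted p under 0.05. Leaving out single WT libraries gave 324 higher and 348 lower genes without normoxia replicate 1, 121 and 22 without normoxia replicate 2, 342 and 145 without hypoxia replicate 1, and 126 and 2 without hypoxia replicate 2. With 2 cultures per group, p-values measure the spread left in all 8 libraries after the shared difference between replicate numbers is removed. The common dispersion, a fitted measure of spread, was 0.011 with the replicate term and 0.0376 without it. Cultures beyond these are not covered.

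**Figure D1:**
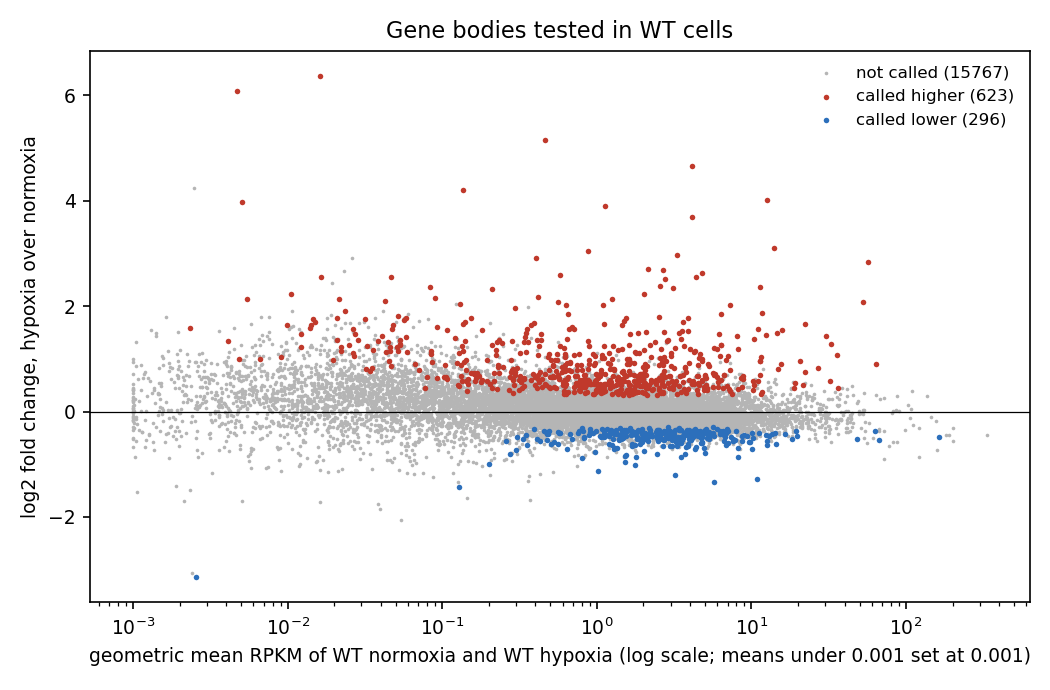
Log2 fold change of each tested gene body in WT cells (hypoxia over normoxia, y axis) against its geometric mean RPKM in both conditions (x axis, log scale), one point per gene, red for the 623 called higher and blue for the 296 called lower. Increases reach a log2 of 6.37, in a gene with 0 reads in both normoxia libraries, so that size is uncertain. The decreases called lie above -1.5 except for ABCA13 at -3.15, which was singled out after its value was seen. The hypoxia libraries of ABCA13 did not both lie below both of its normoxia libraries.

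The smallest p-values included those of several established HIF targets. *BHLHE40*, a transcriptional repressor of the circadian network, had 17.3 and 27.4 CPM in normoxia and 131 and 266 CPM in hypoxia. Both hypoxia libraries were far above both normoxia libraries, and the log2 fold change was 3.10 ± 0.11 (edgeR adjusted p = 1.65e-05). *PDK1*, the kinase that shuts off pyruvate dehydrogenase, rose from 31.9 and 39.1 CPM to 205 and 255 CPM, a log2 change of 2.70 ± 0.10 (edgeR adjusted p = 1.65e-05). *MIR210HG*, the host transcript of the hypoxia-induced microRNA miR-210, had 5.75 and 5.46 CPM in normoxia and 78.6 and 106 CPM in hypoxia, and its log2 change of 4.01 ± 0.17 was the largest of the 20 genes with the smallest p. The groups did not overlap for any of these 3 genes, and each call held without the replicate term. *DDIT4*, an inhibitor of mTORC1 signalling, went from 21.2 and 25.9 CPM to 141 and 203 CPM (2.85 ± 0.17 log2), and at a mean of 154 RPKM in hypoxia it had the highest signal per length of the genes called higher. *BNIP3*, a mitochondrial outer membrane protein that recruits the autophagy machinery, went from 16 and 12.3 CPM to 86.0 and 93.4 CPM (2.69 ± 0.16 log2). *PFKFB4*, which makes the activator of phosphofructokinase, went from 84.8 and 77.9 CPM to 478 and 538 CPM (2.63 ± 0.12 log2). Every hypoxia value in these 6 genes exceeded every normoxia value by over 4-fold.

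**Figure D2:**
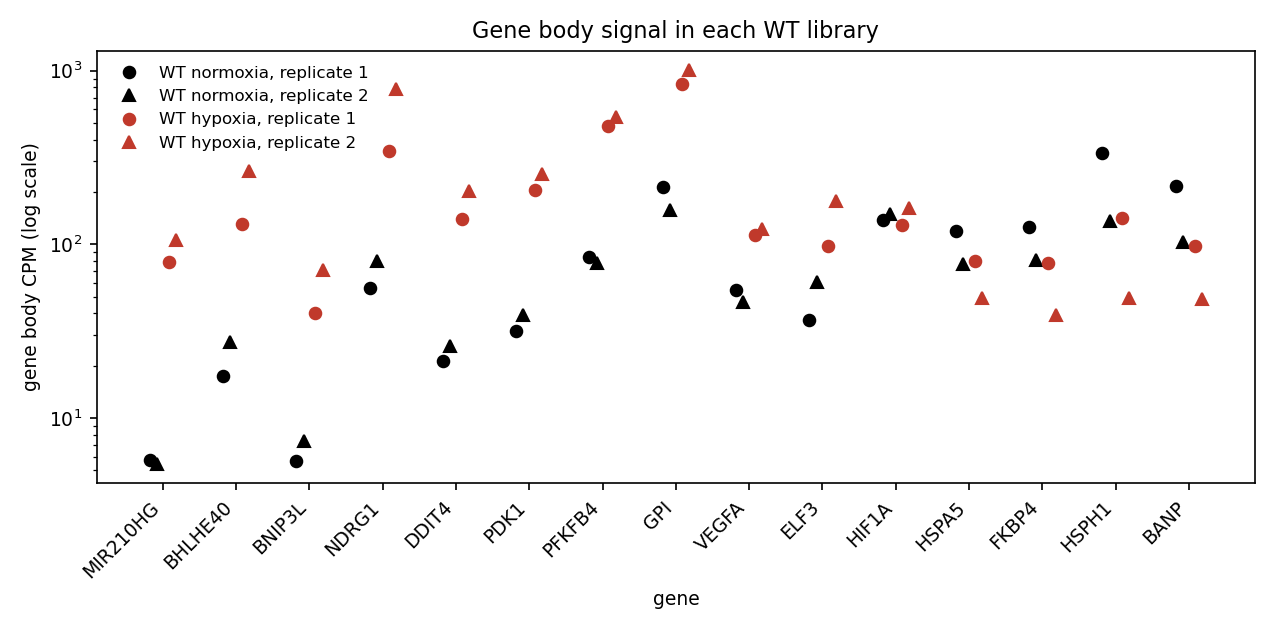
Gene body CPM (y axis, log scale) of 15 genes (x axis) in the 4 WT libraries, black for normoxia and red for hypoxia, circles for replicate 1 and triangles for replicate 2. From MIR210HG to ELF3 both red symbols lie above both black ones; HIF1A overlaps, and in HSPA5, FKBP4, HSPH1 and BANP each red symbol lies below the black symbol of its own replicate.

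Sequence just upstream of the counted start shows where the ACGTG core lies in 5 of these leading genes, shown because they hold a match. The stretches run 5′ to 3′ on the gene's strand, reach up to 250 bases, and end at the base before the counted start (GRCh37), with bases annotated as exon left out. Capitals mark ACGTG read on either strand; where CACGTG is in capitals, the core is present on both strands.
BHLHE40 (chr3:5020846-5021095, plus strand): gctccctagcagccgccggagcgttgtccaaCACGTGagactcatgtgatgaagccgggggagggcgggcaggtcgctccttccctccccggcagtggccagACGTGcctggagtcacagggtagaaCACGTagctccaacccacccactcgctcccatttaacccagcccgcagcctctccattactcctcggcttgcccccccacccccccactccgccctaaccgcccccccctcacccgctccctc
PDK1 (chr2:173420448-173420695, plus strand): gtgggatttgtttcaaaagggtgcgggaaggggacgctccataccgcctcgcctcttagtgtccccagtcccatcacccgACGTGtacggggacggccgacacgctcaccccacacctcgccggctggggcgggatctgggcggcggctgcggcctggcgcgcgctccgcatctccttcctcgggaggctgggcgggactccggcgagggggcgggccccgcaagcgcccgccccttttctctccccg
MIR210HG (chr11:568458-568707, minus strand): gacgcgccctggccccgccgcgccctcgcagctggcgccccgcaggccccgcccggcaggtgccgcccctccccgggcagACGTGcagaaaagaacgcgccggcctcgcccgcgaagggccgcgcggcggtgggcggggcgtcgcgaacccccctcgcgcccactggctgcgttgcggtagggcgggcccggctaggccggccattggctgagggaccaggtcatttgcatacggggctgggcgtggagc
DDIT4 (chr10:74033463-74033675, plus strand): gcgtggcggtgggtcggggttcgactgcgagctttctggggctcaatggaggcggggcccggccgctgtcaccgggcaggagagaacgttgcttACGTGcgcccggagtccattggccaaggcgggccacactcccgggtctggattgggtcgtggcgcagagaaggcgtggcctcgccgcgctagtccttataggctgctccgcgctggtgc
BNIP3 (chr10:133795518-133795767, minus strand): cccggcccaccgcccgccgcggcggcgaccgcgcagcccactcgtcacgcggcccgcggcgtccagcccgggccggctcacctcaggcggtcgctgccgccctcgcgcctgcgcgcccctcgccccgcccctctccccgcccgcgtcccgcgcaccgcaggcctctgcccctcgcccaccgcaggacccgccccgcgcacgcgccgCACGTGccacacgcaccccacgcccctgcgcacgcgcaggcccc
*BHLHE40* holds 4 matches counted over both strands, *BNIP3* holds 2, and *PDK1*, *MIR210HG* and *DDIT4* hold 1 each. *PFKFB4* has 0 matches in its 250 bases and is not shown. Of the other genes among the 20 smallest p-values, *KDM3A*, *LINCR-0002*, *P4HA1*, *NDRG1*, *ELF3*, *BNIP3L* and *LINC01619* also have 0 matches in the whole 250-base window. In *KDM4B*, *QSOX1*, *FAM162A*, *FOSL2*, *INSIG2*, *LDHA* and *ZNF292* the window holds 1 or more. Over all 23193 promoters, 19% hold ACGTG on either strand within the 250 bases before the start. The share was 28.1% of the 623 genes called higher (175 genes), 22.6% of those called lower, and 20.2% of those not called. Among genes with a log2 fold change above 1 it was 32.7%, and above 2 it was 39.0%. Split by the GC content of the promoter, the share in the lowest quartile was 15.4% of the higher genes and 17.0% of those not called. It was 27.4% and 22.2% in the next quartile, then 38.2% and 22.6%, and 32.6% and 18.8% in the quartile richest in GC. A match is a stretch of letters and not a bound site. GCGTG, the other form of the core, stood in 39.0% of the higher genes and 40.5% of those not called.

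*MIR210HG* is also the precursor of a mature microRNA, whose sequence carries its targeting specificity. The RefSeq mature strand is given with the seed, bases 2 to 8, in capitals.
hsa-miR-210-3p: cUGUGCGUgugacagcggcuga
Its hairpin matches GRCh37 once, at chr11:568089-568198 on the minus strand, which lies inside the *MIR210HG* TSS region (567957 to 568507) and outside the gene body region (565656 to 567456) in which the 4.01 log2 rise was counted. The TSS region that holds the hairpin went from 5.55 and 4.70 CPM to 18.5 and 16.1 CPM, a log2 change of 1.74 ± 0.37 (edgeR adjusted p = 0.0212).

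Glycolysis was covered at nearly every step. Of 19 tested glycolytic enzymes, 15 were called higher and none lower, against 3.73% of all genes tested, and the list's median log2 fold change was 1.26. *HK2*, the hexokinase that traps glucose in the cell, rose from 105 and 112 CPM to 539.6 and 711 CPM (2.55 ± 0.30 log2, edgeR adjusted p = 0.00501). *GPI*, which converts glucose 6-phosphate to fructose 6-phosphate, rose from 213 and 157 CPM to 833 and 1003 CPM (2.36 ± 0.22 log2). *LDHA*, which regenerates NAD+ by making lactate, went from 162 and 156 CPM to 476 and 530.4 CPM (1.67 ± 0.12 log2). The hypoxia libraries were well separated from normoxia for all 3 genes. The other enzymes called higher were *PGK1* (1.85 log2), *ALDOC* (1.78), *ENO2* (1.70), *ALDOA* (1.44), *PGAM1* (1.38), *ENO1* (1.29), *PFKP* (1.26), *PKM* (0.91), *GAPDH* (0.90), *HK1* (0.80), *PFKL* (0.63) and *TPI1* (0.45). The 4 members that did not pass were *PFKM* (-0.027), *LDHB* (-0.13), *ENO3* (0.22) and *HK3* (-0.0099). *GAPDH* reached 87.1 RPKM in hypoxia, so the calls included strongly transcribed enzymes. Between 10 and 13 of the 19 were called with any 1 WT library left out, and 9 without the replicate term.

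Genes that feed glycolysis or divert its products had several members called higher and none lower, although 4 of 9 glucose transporters and 6 of 10 genes of lactate export and pH control had changes below 0. Among 9 tested glucose transporters, *SLC2A1* (GLUT1) rose from 98.4 and 137 CPM to 408 and 551 CPM (2.03 ± 0.25 log2, edgeR adjusted p = 0.00612), and *SLC2A3* (1.96) and *SLC2A12* (1.34) also passed. *SLC2A3* was weakly transcribed, with 2.03 and 2.76 CPM in normoxia and 4.54 and 14.2 CPM in hypoxia. *PFKFB3* rose much less than *PFKFB4* (0.40 against 2.63 log2). *PDK3* (1.36) and the phosphatase regulator *PDPR* (0.31) joined *PDK1* among 10 genes that control pyruvate dehydrogenase. The lactate exporter *SLC16A3* (0.50) and the carbonic anhydrase *CA9* (2.16) were the only 2 of 10 genes of lactate export and pH control to pass, and *CA9* did so at 0.198 and 0.331 CPM in normoxia and 1.22 and 1.16 CPM in hypoxia. Glycogen synthesis was represented by *GYS1* (0.88), the branching enzyme *GBE1* (1.04), and the phosphatase subunits *PPP1R3B* (1.35) and *PPP1R3E* (0.70), 4 of 11 tested. With a WT library left out, 1 or 2 transporters, 1 or 2 genes of pyruvate dehydrogenase control, 0 or 1 of lactate export and pH control (1 without normoxia replicate 1), and 2 to 4 glycogen genes (2 without normoxia replicate 2) were called higher.

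Mitochondrial genes of turnover were called higher. *BNIP3L*, the relative of *BNIP3* that also marks mitochondria for autophagy, rose from 5.65 and 7.39 CPM to 40.1 and 71.0 CPM (3.05 ± 0.20 log2, edgeR adjusted p = 2.62e-04). *FAM162A*, a mitochondrial protein induced by HIF, rose from 29.1 and 28.7 CPM to 134 and 198 CPM (2.51 ± 0.17 log2). *PINK1* (0.68) and the matrix protease *LONP1* (0.44) passed with smaller changes, giving 5 of 11 genes of this list called higher and none lower. No nuclear gene of the respiratory chain was called higher, and 4 of 71 were called lower (1.77% of all genes tested were), all of them genes of complex I (*NDUFA3* at -0.66, *NDUFS3* at -0.58, *NDUFAB1* at -0.43 and *NDUFA7* at -0.37). The median of this list was -0.17, with 64 of 71 members below 0. Of 24 enzymes of the TCA cycle, citrate synthase *CS* (-0.39) and *MDH2* (-0.39) fell. Without normoxia replicate 1, 5 respiratory chain and 2 TCA cycle genes were called lower, and 0 of either list with any other WT library left out or without the replicate term.

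The oxygen-sensing pathway itself changed at its feedback arm. The gene bodies of *HIF1A* (138 and 150.1 CPM in normoxia, 129.5 and 161 CPM in hypoxia) and *EPAS1* (59.2 and 63.7 CPM and 60.0 and 74.9 CPM) overlapped between conditions, with log2 changes of 0.014 ± 0.14 and 0.12 ± 0.16. The prolyl hydroxylases *EGLN1* and *EGLN3* were called higher, *EGLN3* from 14.9 and 15.5 CPM to 53.2 and 83.7 CPM (2.14 ± 0.18 log2) and *EGLN1* from 143 and 118 CPM to 305 and 374 CPM (1.39 ± 0.13 log2). No other of the 13 tested genes for HIF subunits, hydroxylases, VHL and its partners passed. Although the *HIF1A* gene body did not pass, the transcript *HIF1A-AS2*, antisense to *HIF1A*, went from 0 and 0.783 CPM to 8.83 and 20 CPM in its TSS region (5.17 ± 0.64 log2, edgeR adjusted p = 2.88e-05). Both normoxia libraries were at or under a floor of 3 reads in this region, so the size of the change is uncertain.

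A list of 37 other published HIF targets had 24 members called higher and 1 lower, with a median of 0.93. The list was drawn up with earlier results of these data known, so its count is a description. With the libraries left out in turn, 14 (without normoxia replicate 2) to 22 members were called higher. *ANKRD37*, an ankyrin repeat protein, rose from 1.93 and 2.04 CPM to 26.6 and 85.9 CPM (4.66 ± 0.39 log2), *INSIG2*, a brake on cholesterol synthesis, from 17.9 and 19.4 CPM to 65.7 and 115 CPM (2.22 ± 0.16), and the AP-1 subunit *FOSL2* from 46.6 and 40.7 CPM to 117 and 134 CPM (1.53 ± 0.11). *C4orf47* (2.59), *WSB1* (1.53) and *ZNF395* (1.03) also rose, and the RNA-binding protein *RBPMS* was the member called lower (-0.55). *QSOX1*, an enzyme that forms disulfide bonds in secreted proteins, is not on that list and rose from 50.2 and 52.9 CPM to 136 and 159 CPM (1.51 ± 0.092 log2).

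Secreted factors and the collagen enzymes made up a further group. *ANGPTL4*, an inhibitor of lipoprotein lipase, rose from 10.4 and 10.1 CPM to 81.3 and 205 CPM (3.70 ± 0.29 log2, edgeR adjusted p = 6.87e-04). The vasodilator peptide gene *ADM* rose from 33.0 and 40.2 CPM to 139.7 and 170.1 CPM (2.09 ± 0.25), and *VEGFA*, the main angiogenic growth factor, from 54.7 and 46.8 CPM to 113 and 122 CPM (1.21 ± 0.11). With *STC2* (1.54) and *SEMA4B* (0.96), 5 of 17 ligands were called higher and none lower, and the list's median was 0.66. *P4HA1*, a subunit of the collagen prolyl hydroxylase, rose from 142 and 105 CPM to 549 and 691 CPM (2.34 ± 0.17 log2), and the lysyl hydroxylases *PLOD2* (1.85) and *PLOD1* (1.06) and the lysyl oxidase *LOXL2* (0.91) completed 4 of 18 collagen-modifying genes.

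Chromatin and transcription regulators were called higher as well. *KDM3A*, which removes methyl groups from lysine 9 of histone H3, rose from 55.2 and 57.1 CPM to 254 and 335 CPM (2.38 ± 0.11 log2, edgeR adjusted p = 3.66e-05), and *KDM4B* from 194 and 212 CPM to 559.6 and 577 CPM (1.49 ± 0.088 log2). Among 25 histone demethylases, *KDM4C* (1.01), *KDM6B* (0.47) and *KDM5B* (0.37) were also higher, and *PHF2* was lower (-0.44). Among 17 genes of the clock and its repressors, *BHLHE41* (1.71), *PER1* (1.10), *NFIL3* (0.84) and *NR1D1* (0.78) joined *BHLHE40*. The MYC antagonists *MXI1* (1.24), *MXD1* (1.09) and *MNT* (0.64) were 3 of 12 members called higher in the MYC, MAX and MXD network, in which none was called lower. *NDRG1*, a stress-responsive suppressor of metastasis, rose from 55.9 and 79.7 CPM to 343 and 783 CPM (2.96 ± 0.16 log2) and was the only 1 of 4 NDRG genes to pass.

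Signalling genes gave isolated calls. *ELF3*, an epithelial ETS factor, rose from 36.5 and 61.1 CPM to 97.4 and 179 CPM (1.48 ± 0.095 log2, edgeR adjusted p = 2.46e-04), the 1 of 20 ETS genes to pass, and *ETS1* missed the threshold (0.51 ± 0.15, edgeR adjusted p = 0.114). The receptor phosphatase *PTPRR* (1.91) and the adhesion scaffold *NEDD9* (1.27) rose from low levels, *PTPRR* from 2.48 and 4.25 CPM to 8.24 and 17.8 CPM and *NEDD9* from 2.43 and 3.86 CPM to 5.07 and 10.3 CPM. *SMAD9* (1.26), *SMAD3* (0.82), *SMAD7* (0.69) and *TGFB2* (0.56) were 4 of 20 genes of the SMAD list. *SPRY1* rose (2.01) while *SPRY4* fell (-0.37), both being inhibitors of receptor tyrosine kinase signalling. In the immediate early list, *KLF10* (0.97) and *FOSB* (0.52) rose with *FOSL2*, and *KLF2* fell (-0.72), 4 of 25 in all. NF-kappaB genes *BIRC3* (1.03), *RELB* (0.52) and *NFKB2* (0.50) were 3 of 18. Of 18 Wnt targets and 19 NRF2 targets edgeR called none, with 1 and 2 higher and 3 and 2 lower at an unadjusted p under 0.05, whereas DESeq2 with the replicate term called 1 NRF2 target lower. Of 25 p53 targets *GDF15* rose (0.74) and *AEN* fell (-0.48), 4.0% in each direction against 3.73% and 1.77% of all genes tested. The 1 ETS gene was 5.0% of its list. Leaving out normoxia replicate 1, normoxia replicate 2, hypoxia replicate 1 and hypoxia replicate 2 in turn gave 1, 0, 2 and 0 SMAD genes and 1, 0, 1 and 0 NF-kappaB genes called higher, and none of either list passed without the replicate term.

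Many other lists held few calls or none. Of 15 mTORC1 inhibitors *DDIT4* and *DEPTOR* (0.80) rose, of 16 lipid droplet genes *HILPDA* (1.87), *PLIN2* (0.92) and *LPIN2* (0.58), and of 8 dioxygenases of DNA and RNA the 5-methylcytosine oxidase *TET2* (0.39) and the RNA demethylase *ALKBH5* (0.61). Single members were called higher among 14 genes of iron and heme (the transferrin receptor *TFRC*, 0.45), 49 of DNA replication (the thymidine kinase *TK1*, 0.34), 21 of DNA repair (*BRCA2*, 0.34), 30 of sterol and fatty acid synthesis (*STARD4*, 0.69), 32 of the pause release machinery (*CDK19*, a kinase of the Mediator complex, 0.46) and 37 aminoacyl-tRNA synthetases (*DARS*, 0.87). No member of these 6 lists was called lower. The single calls made up 2.0% to 7.1% of their lists, around the 3.73% of all genes tested, so they are no trait of the lists. The 3 calls among 23 genes of the integrated stress response were *DDIT4*, *GDF15* and *VEGFA*, which other lists hold as well. Zinc finger genes, 401 in number, had 9 called higher (2.2%) and 2 lower (0.5%) with a median of -0.06, both shares below those of all genes tested. Of 27 named long noncoding RNAs, *UCA1* (1.46), *LUCAT1* (1.51), *CASC8* (1.36) and *MIR210HG* rose, and *MIR210HG* was the only 1 of 40 host genes of small RNAs to pass (2.5%). With normoxia replicate 1, normoxia replicate 2, hypoxia replicate 1 and hypoxia replicate 2 left out in turn, genes called higher numbered 4, 3, 3 and 3 for mitochondrial turnover, 3, 2, 3 and 3 for histone demethylases, 6, 3, 4 and 3 for the clock, 5, 3, 3 and 2 for collagen modification, 2, 1, 5 and 1 for immediate early genes, and 2, 0, 3 and 1 for lipid droplets. For the named long noncoding RNAs they numbered 2, 1, 3 and 2, with 7 called lower without normoxia replicate 1.

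**Figure D3:**
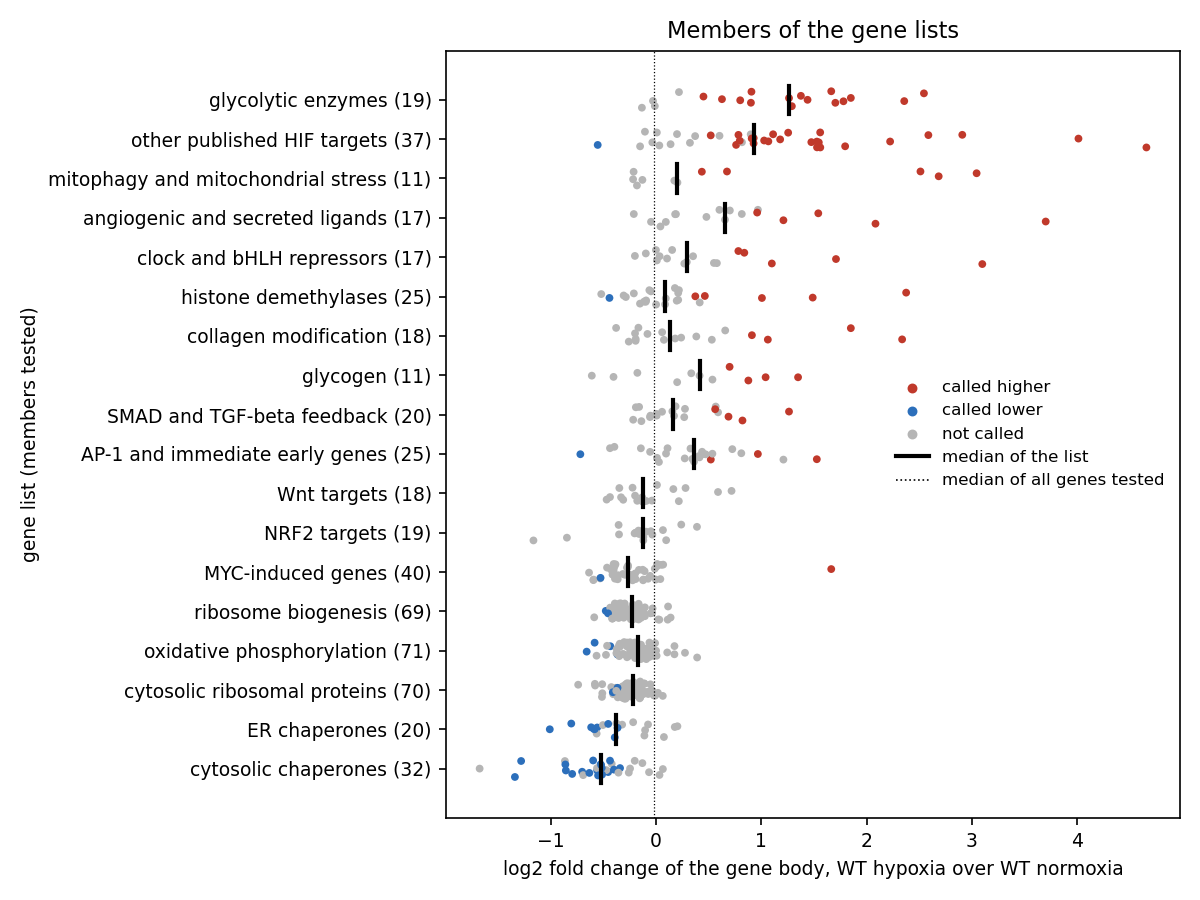
Log2 fold change of the gene body in WT cells (x axis) for the tested members of 18 gene lists (y axis, number tested in parentheses), one point per gene, red for called higher, blue for called lower and grey for not called; black bars are list medians and the dotted line is the median of all genes tested. Glycolytic enzymes have the highest median (1.26) and cytosolic chaperones the lowest (-0.52).

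Noncoding transcripts leaned upward. Of 572 antisense RNA genes, 33 were called higher and 1 lower (median log2 0.19), of 420 LINC genes 25 and 1 (median 0.24), and of 798 uncharacterized LOC genes 40 and 1 (median 0.20), against 3.73% and 1.77% of all genes tested. These classes are weakly transcribed, and the quartile of all genes with the lowest RPKM had a median of 0.22 in WT cells and 0.15 in HIF1A-/- cells, which is close to the medians of these classes. In that quartile 3.91% were called higher and 0.19% lower. The shares were 5.8% and 0.2% of antisense genes, 6.0% and 0.2% of LINC genes, and 5.0% and 0.1% of LOC genes. The few decreases are thus near the share of weakly transcribed genes. *LOC105370526* rose from 2.92 and 2.48 CPM to 69.1 and 120.3 CPM (5.15 ± 0.45 log2, edgeR adjusted p = 9.46e-04). *LINC01619* rose from 29.2 and 34.5 CPM to 79.6 and 111 CPM (1.56 ± 0.11), and *LINC00673* from 268 and 407 CPM to 559 and 803 CPM (1.02 ± 0.086). Among antisense genes, *BHLHE40-AS1* (1.09), *DARS-AS1* (1.66) and *SLC2A1-AS1* (1.64) rose beside *BHLHE40*, *DARS* (0.87) and *SLC2A1*, which were themselves called higher. Sense and antisense reads were kept apart when the study chose a TSS for each gene, but the strand setting of the final counts is not given in the sources used here, so reads of a gene and of an antisense partner that overlaps it cannot be told apart. With normoxia replicate 2 or hypoxia replicate 2 left out, 7 and 4 antisense genes, 5 and 6 LINC genes, and 3 and 8 LOC genes were called higher. The largest fitted changes came from genes with no reads in normoxia. S100A7 and C11orf97 had 0 reads in both normoxia libraries. In hypoxia replicates 1 and 2 they had 5 and 18 reads and 4 and 15 reads. Against a floor of 3 reads per library, their mean hypoxia signal was at least 3.22-fold and at least 2.65-fold higher. Most of these reads came from hypoxia replicate 2, and neither call held without the replicate term.

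Genes for protein folding made up the list with the most calls among decreases, although most of the 296 lower genes are on neither chaperone list. Of 32 tested cytosolic chaperones and co-chaperones, 18 were called lower and none higher, against 1.77% of all genes tested, and the median log2 fold change was -0.52. *HSPH1*, a nucleotide exchange factor for HSP70, had 336 and 136 CPM in normoxia and 141 and 49.4 CPM in hypoxia. *FKBP4*, an HSP90 co-chaperone, had 125 and 81.3 CPM in normoxia and 78.0 and 39.2 CPM in hypoxia, a log2 change of -0.86 ± 0.11 that carried the smallest p of all decreases (edgeR adjusted p = 0.00891). Each hypoxia library was below the normoxia library of its own number, but replicate 1 was above replicate 2 in both conditions. This held for the list as a whole, whose replicate 1 exceeded replicate 2 by a median of 0.57 log2 in normoxia and 0.51 in hypoxia, as large as the fall itself. The groups did not overlap in 8 of the 32 genes, both replicate pairs fell in 28, and the median was -0.51 within pair 1 and -0.53 within pair 2. None of these calls held without the replicate term, where 5 members had an unadjusted p under 0.05 for a decrease. With a library left out, 9 (normoxia replicate 1), 7 (normoxia replicate 2), 13 (hypoxia replicate 1) and 1 (hypoxia replicate 2) of the 32 passed, and the median stayed between -0.57 and -0.45. Whether the difference between replicates has a part in these calls was not tested.

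Calls reached most chaperone systems of the cell. *HSP90AA1* (-0.56) and *HSP90AB1* (-0.51), the HSP90 genes of the cytosol, were called lower together with *CHORDC1* (-0.85), *AHSA1* (-0.79), *STIP1* (-0.63), *DNAJA1* (-0.70) and *CACYBP* (-0.60). Of the CCT chaperonin, *CCT3* (-0.52), *CCT6A* (-0.51), *TCP1* (-0.55), *CCT7* (-0.44) and *CCT4* (-0.34) passed, and in mitochondria *HSPD1* (-0.53). *HSPA1B* was called lower (-1.28) and its near-identical neighbour *HSPA1A* was not (-1.67, edgeR adjusted p = 0.125), and since reads can be shared between these copies both values are uncertain. *HSPA8* moved in opposite directions in the replicate pairs (444 and 747 CPM in normoxia, 539 and 199.9 CPM in hypoxia) and was not called. In the endoplasmic reticulum, 9 of 20 chaperones and their regulators were called lower and none higher, with a median of -0.38. *HSPA5*, the lumenal HSP70, had 119.5 and 77.0 CPM in normoxia and 80.1 and 48.9 CPM in hypoxia (-0.61 ± 0.14 log2, edgeR adjusted p = 0.0744), and *HYOU1* (-0.80), *CRELD2* (-1.01), *PDIA4* (-0.59), *MANF* (-0.58) and *XBP1* (-0.45) fell with it. Here 2, 1, 5 and 0 members passed with those same 4 libraries left out in turn.

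Other genes with the smallest p among decreases had no common list. *BANP*, a promoter-binding factor, had 218 and 104 CPM in normoxia and 98.3 and 48.3 CPM in hypoxia (-1.13 ± 0.17 log2). *KIF1C*, a kinesin motor, fell from 131 and 102 CPM to 87.9 and 68.6 CPM (-0.57 ± 0.080), the superoxide dismutase *SOD1* from 84.0 and 59.6 CPM to 55.9 and 39.2 CPM (-0.60 ± 0.090), and the growth factor gene *BMP4* from 72.7 and 72.9 CPM to 53.6 and 43.9 CPM (-0.59 ± 0.099). For *KIF1C*, *SOD1* and *BMP4* both hypoxia libraries lay below both normoxia libraries. *CPO* (-1.43), *LOC101928389* (-0.99) and *CLU* (-0.97), the gene of the secreted chaperone clusterin, were among the largest decreases. Lists of growth genes had medians below 0 with few calls: MYC-induced genes had a median of -0.27 with 34 of 40 below 0 (1 called higher, *LDHA*, and 1 lower, *HSPD1*), ribosome biogenesis factors -0.23 with 64 of 69 below 0 (2 lower, RRP36 and DDX27), and cytosolic ribosomal protein genes -0.22 with 68 of 70 below 0 (2 lower). Mitochondrial ribosomal protein genes had a median of -0.24 and 1 call, *MRPL18*. The share called lower was 1.4% to 2.9% in these lists, near the 1.77% of all genes tested. The medians and calls of these lists rested on single normoxia libraries. Without normoxia replicate 2 the medians were 0.047 (MYC-induced), -0.08 (ribosome biogenesis), 0.002 (cytosolic ribosomal) and -0.11 (mitochondrial ribosomal) with 0 genes called lower, and without normoxia replicate 1 they were -0.52, -0.40, -0.38 and -0.31 with 13, 10, 22 and 4 called lower. The quartile of all genes with the highest RPKM had a median of -0.11, and scaled by library totals without TMM factors 638 genes were called higher and 152 lower.

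In genes whose bodies were called higher, TSS reads rose less than gene body reads, while TSS reads as a whole gained on gene body reads. In the TSS table, 120 regions were called higher and 33 lower (0.789% and 0.217%). Of the 623 genes with a higher gene body, 535 were tested at the TSS, where 76 were called higher and none lower, and their median log2 change was 0.31. These genes were picked by their gene body change, so a smaller change at the TSS is also partly built in. The pausing index, the TSS read density over that of the gene body, was called lower in 61 genes and higher in 9 (0.421% and 0.0621% of 14494), and 58 of the 61 had a gene body called higher. As the gene body count is the denominator of the index, this overlap is partly built in. TSS reads per 100 gene body reads were 21 to 21.4 in WT normoxia and 25 to 25.3 in WT hypoxia. Each table was scaled by its own totals, and with the TSS counts scaled by gene body library sizes instead the median TSS change moved from -0.01 to 0.17, with 29 regions called higher and 1 lower and the pausing index called lower in 18 genes and higher in 2. Between 21 (without hypoxia replicate 2) and 65 TSS regions were called higher with a WT library left out, and between 19 (without hypoxia replicate 2) and 85 genes had a lower pausing index.

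*BHLHE40* rose at both ends, in its TSS region from 92.4 and 111 CPM to 198 and 314 CPM (1.30 ± 0.14 log2, edgeR adjusted p = 3.49e-06), while its pausing index went from 46.1 and 34.9 to 13.1 and 10.2. *BNIP3* passed in the gene body and not at the TSS, where it held 38.0 and 23.0 CPM in normoxia and 42.2 and 28.4 CPM in hypoxia, and its pausing index went from 57.4 and 45.4 to 11.9 and 7.37 (-2.45 ± 0.25 log2, edgeR adjusted p = 4.01e-05). *P4HA1* (-1.83), *FAM162A* (-1.90), *PDK1* (-1.72) and *ANGPTL4* (-2.62) were the other genes with the smallest p for a lower index. At the TSS, *LOC105370526* (2.50), *ANKRD37* (2.30), *NDRG1* (1.29) and *PIGS* (1.84) had the smallest p together with *BHLHE40*. *PIGS*, a gene of glycosylphosphatidylinositol anchor assembly, stands apart because its TSS region rose from 20.4 and 21.9 CPM to 66.4 and 86.2 CPM while its gene body did not pass (0.18). It starts 1245 bases after the end of *ALDOC* on the same strand, and *ALDOC* rose by 1.78 log2. Regions called lower at the TSS included *DNAJA4* (-1.56), *SRXN1* (-1.04), *SRM* (-0.86) and *HSPH1* (-0.89), of which *DNAJA4* and *HSPH1* also had a lower gene body. A higher pausing index was found in *PIGS* (1.67), *RHBDD2* (0.85), *KIF4A* (0.77), *HSPA1B* (1.07) and *PARP12* (3.29), the last from 0.222 and 0.261 CPM at the TSS in normoxia.

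**Figure D4:**
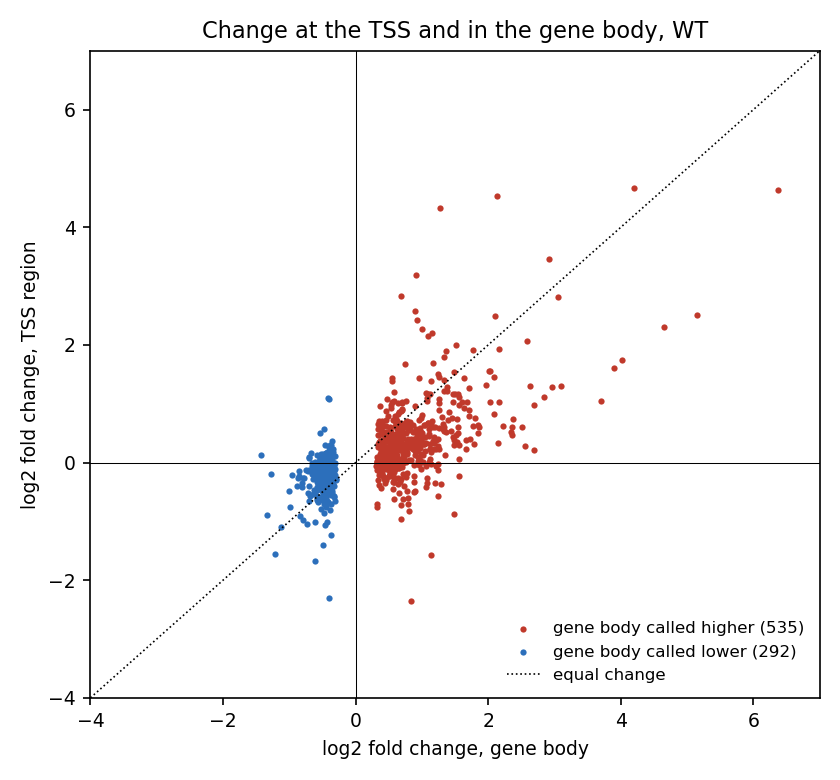
Log2 fold change of the TSS region (y axis) against that of the gene body (x axis) in WT cells, for genes tested in both whose gene body was called higher (red, 535 genes) or lower (blue, 292 genes); the dotted line marks equal change. Most red points lie below the line, with medians of 0.31 at the TSS and 0.72 in all gene bodies called higher. The genes were picked by their gene body change, which favours red points below the line.

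The HIF1A-/- libraries address which of these responses differed by genotype. In them 5 gene bodies were called higher and 1 lower after the same exposure (0.03% and 0.00599%), with 920 and 685 at an unadjusted p under 0.05. The gene body of *HIF1A* itself held 165 and 137 CPM in normoxia and 175 and 158 CPM in hypoxia in these cells, so gene-level counts do not check the disruption. The interaction test, the WT response minus the HIF1A-/- response, called 64 genes larger in WT (0.384%) and none smaller, with 555 and 358 at an unadjusted p under 0.05. At the TSS the test called 7 regions larger in WT (0.046%), and for the pausing index it called 1 gene higher and 20 lower (0.0069% and 0.138%). In HIF1A-/- cells, TSS reads per 100 gene body reads were 12.7 (normoxia) and 14.8 (hypoxia) in replicate 1. They were 20.3 and 21.1 in replicate 2, a wider gap than between WT replicates. Its effect on these calls was not tested. All 64 gene bodies were among the 623 genes higher in WT hypoxia. Both tests use the WT difference, so this overlap is partly built in. The count of gene bodies called in the interaction was 53 and 18 without normoxia replicates 1 and 2, 82 and 30 without hypoxia replicates 1 and 2, and 9 without the replicate term. Glycolytic enzymes had a median log2 fold change of -0.04 in HIF1A-/- cells against 1.26 in WT, and 8 of the 19 were called in the interaction. *PDK1* changed by 0.31, *PFKFB4* by 0.030 and *BNIP3* by -0.14 log2 in HIF1A-/- cells, and the differences from WT were 2.39 (edgeR adjusted p = 0.00140), 2.60 (edgeR adjusted p = 0.00160) and 2.82 (edgeR adjusted p = 0.00287).

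Other parts of the WT response went the same way in HIF1A-/- cells, some at similar size and some not. *LINCR-0002* changed by 2.37 log2 in WT and 2.16 in HIF1A-/- cells, *NEDD9* by 1.27 and 1.22, *ELF3* by 1.48 and 1.01, and *LINC01619* by 1.56 and 0.98, and none of the 4 differences passed the interaction test. With 2 cultures per group, this does not show that the responses were equal. *BHLHE40* was called in both, by 3.10 and 1.19 log2, and the difference of 1.91 passed (edgeR adjusted p = 0.00287). Chaperone lists had medians of -0.52 in WT and -0.41 in HIF1A-/- cells for the cytosolic list, all 32 members being below 0 in HIF1A-/- cells, and of -0.38 and -0.43 for the endoplasmic reticulum list, and none of these genes was called lower in HIF1A-/- cells. *HSPH1* changed by -1.34 and -1.41 log2, and *BANP* by -1.13 and -1.49. Of the 296 genes lower in WT, 92.9% were below 0 in HIF1A-/- cells, and of the 623 higher genes 80.7% were above 0, whereas 67.3% of genes not called had the same sign in both. No interaction was called among the lower genes, and 84 had an unadjusted p under 0.05 in the direction of a stronger fall in WT, so smaller differences between genotypes are not settled by these libraries.

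**Figure D5:**
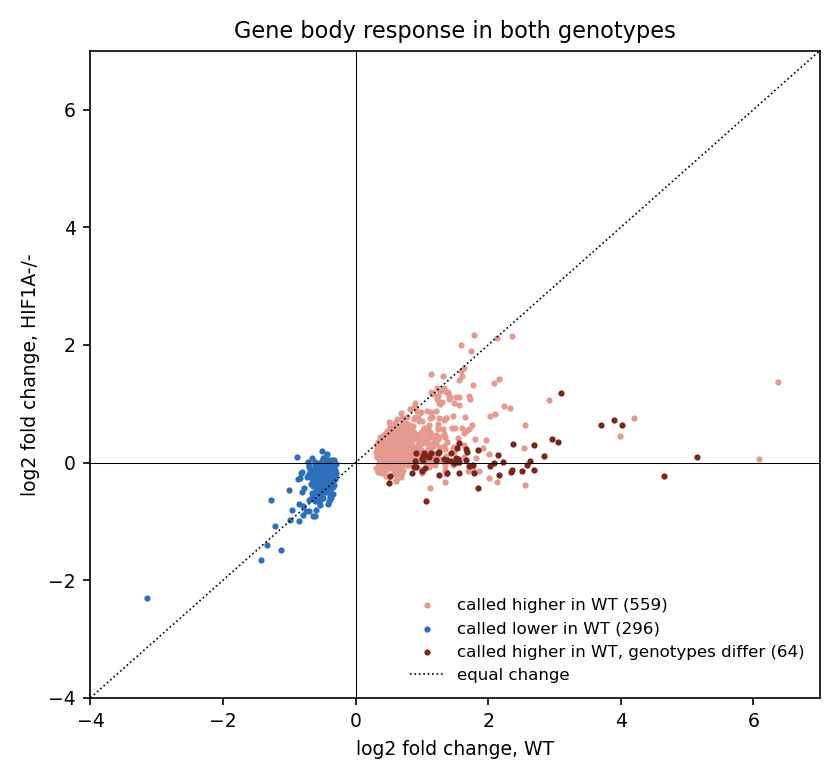
Log2 fold change of the gene body in HIF1A-/- cells (y axis) against that in WT cells (x axis) for genes called in WT, pink for called higher, dark red for the 64 of them whose response differed between genotypes and blue for the 296 called lower; the dotted line marks equal change. The dark red points lie closer to 0 in HIF1A-/- cells than in WT, BHLHE40 being the highest at 1.19. They were picked by the difference between genotypes, so their place below the line is built in. Of the 296 blue points, 275 are below 0 on both axes.

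Gene length, level and position also varied with the calls. The share called higher rose from 2.52% of gene bodies under 5 kb to 5.71% of those of 100 to 200 kb and was 3.47% above 200 kb, while the median change of the called genes was 1.12, 0.61 and 0.67 log2 in these 3 length classes. Of 66 genes whose start lay within 1 kb of the start of a called-higher gene on the opposite strand, 18 (27.3%) were called higher, against 2.2% beside genes not called. A pair in which both genes were called higher is counted here from both sides, so the 18 are not independent. For genes starting within 10 kb after the end of a called-higher gene on the same strand the share was 14.1% (13 of 92), against 3.0%. Head-to-head pairs in which both rose were *FAM162A* with *CCDC58* (0.68), *RASSF7* (1.18) with *LMNTD2* (1.21) and *BTG1* (1.13) with *LOC101928617* (1.31). Pairs in which both fell were *HSPD1* with *HSPE1-MOB4* (-0.39), *CCT3* with *TSACC* (-0.78) and *TCP1* with *MRPL18* (-0.39). Along one strand, *LOC143666* (1.47), *MIR210HG* and *LMNTD2* followed each other on chromosome 11, and *CAND1.11* (1.09) followed *ADM*, starting 910 bases after its end. Gene-level counts cannot separate reads of such a gene from transcription that runs on from its upstream neighbour.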

How the data were processed

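The PRO-seq counts were deposited by the authors as raw reads per gene, in one table for gene bodies (1001 bases after the TSS to the gene end) and one for TSS regions (50 bases before to 500 after it, 551 bases), with pooled plates of 1 culture per library. The submitters' processing notes name bcl2fastq 2.20.0.422, FastQC 0.11.5, HISAT2 2.1.0, SAMtools 1.5, Subread 1.6.2, featureCounts, HOMER and GRCh37, and the methods describe unspliced alignment with a mapping quality filter. Both tables' sample columns matched the labels, and none was left unused.

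Counts were fitted here in R 4.3.3 with edgeR 4.0.16 (TMM, quasi-likelihood test, group means and replicate number, all 8 libraries sharing 1 dispersion, Benjamini-Hochberg over all genes tested, FDR 10%). CPM and RPKM were computed here from these counts. Changes are log2 fold changes, given with ± their standard error. The pausing index is TSS over gene body read density, tested in 1 fit of both tables with a term per library. The replicate number was kept because the libraries are paired by it: the deviations of same-numbered libraries from their group means correlated in all 6 pairs of groups, at 0.501 to 0.848 in gene bodies and 0.218 to 0.522 at the TSS. The study's methods name no such term. Alternatives were no replicate term, DESeq2 1.42.0, library totals, other filters, the 4 WT libraries alone, gene body scaling of TSS counts, and each WT library left out. Scripts were tested on simulated data. Promoter and microRNA sequence came from GRCh37 and RefSeq.

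The members and gene lists were chosen with earlier results of these data known. Named genes are the 20 smallest p-values per direction among called genes whose groups do not overlap, the 5 largest changes, the 5 smallest p-values per direction at the TSS and for the pausing index, up to 6 members of each list with the smallest p, genes the study names, *HIF1A* and *EPAS1*, the 5 called genes with the highest RPKM, and called neighbours of these. Further list members, and genes whose groups overlap, were named after their values were seen. A few items are not reported here.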

Additional observations from a re-analysis of the deposited data

Results flagged for a closer look

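The hypoxia response differed between WT and HIF1A-/- cells by the interaction test (edgeR, FDR of 10%) in 64 gene bodies, 7 TSS regions and, for the pausing index, in 1 gene with a higher and 20 genes with a lower index in WT. The 43 gene bodies named here had adjusted p-values of 0.0014 to 0.0953, and each response was larger in WT.

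For metabolic enzymes and transporters the differences in log2 fold change, WT minus HIF1A-/-, were 1.27 (*ALDOA*), 1.76 (*ENO2*), 2.48 (*GPI*), 1.61 (*LDHA*), 1.56 (*PGAM1*), 0.99 (*PKM*), 2.60 (*PFKFB4*), 2.39 (*PDK1*), 1.14 (*GBE1*) and 2.08 (*SLC2A1*). For mitochondrial and stress genes they were 2.82 (*BNIP3*), 2.70 (*BNIP3L*), 2.65 (*FAM162A*), 2.73 (*DDIT4*) and 2.56 (*NDRG1*). Secreted factors and their modifying enzymes differed by 2.09 (*ADM*), 3.06 (*ANGPTL4*), 1.18 (*VEGFA*), 1.48 (*STC2*), 2.50 (*P4HA1*), 1.71 (*PLOD1*), 1.64 (*PLOD2*) and 1.44 (*QSOX1*). Among oxygen sensors, chromatin enzymes and transcription regulators the values were 1.34 (*EGLN1*), 2.02 (*EGLN3*), 2.06 (*KDM3A*), 1.49 (*KDM4B*), 1.15 (*KDM4C*), 1.91 (*BHLHE40*), 1.29 (*FOSL2*), 1.08 (*MXI1*), 0.98 (*ZNF160*), 1.29 (*ZNF292*) and 0.86 (*ZNF395*). The remaining protein-coding genes were *ANKRD37* (4.89), *C4orf47* (2.63), *INSIG2* (2.21) and *WSB1* (1.52), and the noncoding genes were *MIR210HG* (3.38), *LOC105370526* (5.05), *DARS-AS1* (1.43), *LINC00673* (0.91) and *LOC284930* (1.03).

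At the TSS, 4 named regions differed, *ANKRD37* by 2.22, *LOC105370526* by 2.33, *NDRG1* by 1.00 and *PIGS* by 1.93 (edgeR adjusted p-values of 1.54e-05 to 0.0209). The pausing index differed in 6 named genes (edgeR adjusted p-values of 0.00378 to 0.0211), by -2.15 for *ANGPTL4*, -1.44 for *BHLHE40*, -2.15 for *FAM162A*, -1.98 for *P4HA1*, -1.54 for *PDK1* and 1.83 for *PIGS*, the single gene whose index rose more in WT.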

How the results depend on the processing

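Counts of calls moved with several choices, and the cause was not tested unless given. Without the replicate number as a block, 72 gene bodies were called higher and 0 lower, 7 TSS regions higher and 0 lower, the pausing index higher in 1 gene and lower in 27, and 9 genes in the interaction, and all 72 were among the 623. DESeq2 without the block, chosen after seeing the data, gave 174 and 1 gene bodies, 15 and 0 TSS regions, and 1 and 35 genes for the pausing index. DESeq2 with the block gave 55 and 9 TSS regions and 122 genes in the interaction. The 4 WT libraries alone gave 1884 and 1351 gene bodies, 318 and 192 TSS regions, and 81 and 177 genes for the pausing index. Library totals gave 152 lower gene bodies, 75 higher TSS regions and a higher pausing index in 5 genes. No filter on low counts, which adds genes, gave 201 and 123 TSS regions and 60 and 125 genes for the pausing index, and a CPM minimum of 2 left a higher index in 4. Gene body scaling of the TSS gave 29 and 1 TSS regions and 2 and 18 genes for the index. With each WT library left out, calls ranged from 121 to 342 and from 2 to 348 for gene bodies, 21 to 65 and 1 to 37 for TSS regions, 1 to 37 and 19 to 85 for the index, and 18 to 82 larger and 0 to 18 smaller for the interaction. Of the named genes called, 45 of 119 higher and 0 of 46 lower stayed called without the block. *EPAS1* and *HIF1A*, neither called, changed sign, *EPAS1* ranging from -0.108 (without WT normoxia replicate 2) to 0.366 and *HIF1A* from -0.189 (without WT hypoxia replicate 2) to 0.209, with libraries left out.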

Other observations

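Genes outside the lists, picked after their values were seen and with no test of the group, added detail to the WT response (gene body log2 fold changes, each called at an FDR of 10% by edgeR). Among autophagy genes, the lipid kinase *PIK3C3* (0.78), the scaffold *RB1CC1* (0.40), *WIPI1* (0.50), *ATG10* (0.36) and *GABARAPL1* (0.61) were higher in hypoxia. Growth-restraining genes included *FOXO3* (0.74), *PIK3IP1* (1.6), which binds and inhibits PI3 kinase, *BTG1* (1.13), *HBP1* (0.81), *KLF9* (0.93) and *ARRDC3* (0.95). *KDR*, the VEGF receptor, changed by 2.13 in WT cells and 2.13 in HIF1A-/- cells.

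Decreases outside the lists held proteasome subunits, *PSMB5* (-0.48), *PSMD8* (-0.36) and *PSMD11* (-0.31), and genes of secretory traffic, the translocon subunit *SEC61A1* (-0.45), the SNARE *YKT6* (-0.48) and the cargo lectin *LMAN2* (-0.39). Translation initiation was represented by *EIF2B2* (-0.66), *EIF2B3* (-0.38) and *EIF5* (-0.41), and co-chaperones by *ST13* (-0.54), *NUDC* (-0.51) and *SUGT1* (-0.54). Like the other decreases, none of these calls held without the replicate number in the fit.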
